A study of Homo sapiens with 12 samples.

Results

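Histone methylation and Polycomb regulators were described here as 45 genes, chosen by symbol from the 59427 gene symbols of the deposited table. They were 22 histone lysine methyltransferases of H3K4, H3K36, H3K9, H3K79 and H4K20 (among them KMT2E, counted with the H3K4 genes by family), 5 genes of Polycomb repressive complex 2 (PRC2), 6 of Polycomb repressive complex 1 (PRC1) and 12 histone demethylases. All 45 were in the table, and all 45 had at least 1 TPM (a transcript level corrected for gene length and for the size of the library) in each of the 4 lines. RNA-seq was done on 4 human breast epithelial lines, listed here in the order of progression that the study gives them: MCF10A, the non-tumorigenic line (labelled normal), MCF10AT1, transformed with HRAS carrying G12V, MCF10DCIS, which models ductal carcinoma in situ, and lastly MCF10CA1a, labelled metastatic. Each line had 3 libraries, 12 in all, from total RNA of cells grown in one DMEM:F12 medium, whose supplements included hydrocortisone, cholera toxin, EGF, insulin and horse serum. MCF10A is thus grown as the derived lines are, and each stage is represented by 1 line, so stage and line cannot be told apart. The study set this RNA-seq beside a profiling of histone modifications, which is not analysed here.

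The deposited values are the authors' mean TPM of each line. No value per library was used, so no difference below has a standard deviation, a test or a p-value, and the depth is unknown. A difference is log2(TPM + 1) in the derived line minus that in MCF10A, which understates the change of genes at low levels. Genes with a difference of at least 1 in size were counted as higher or lower, which is a 2-fold difference of TPM + 1, and the same was done for all 13108 genes with at least 1 TPM in at least 1 line. Structural RNAs took 66.0% of the summed TPM of MCF10DCIS, beside 60.0% for MCF10AT1, 59.8% for MCF10CA1a and 57.6% for MCF10A, which leaves less of the sum to other genes. Differences are therefore also given on rescaled TPM, in which structural RNA, mitochondrial and ribosomal protein genes were left out and the rest set to a sum of 1000000 (12926 genes). On the deposited scale the median of all genes was -0.38 in MCF10DCIS against MCF10A, and on the rescaled scale it was -0.094. HRAS, the gene the transformation added, was at 126 TPM in MCF10AT1, 276 in MCF10DCIS and 312 in MCF10CA1a, against 50.8 in MCF10A. The 5 breast epithelial markers KRT5, KRT8, KRT18, EPCAM and CDH1 summed to between 1571 and 2711 TPM, whereas the defining leukocyte genes PTPRC and CD3E and the endothelial genes CDH5 and VWF stayed under 0.1 TPM in all 4 lines. CD68 was at most 6.41 TPM and PECAM1 at most 3.79, and the 4 fibroblast markers summed to between 0.725 and 3.34 TPM, nearly all of it COL1A1. In bulk RNA, fewer cells with a transcript and less transcript per cell cannot be told apart.

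Methyl groups on histone lysines are read as instructions for transcription. H3K4 methylation, laid down by the KMT2 and SETD1 enzymes within COMPASS complexes, marks promoters and enhancers, and H3K36 methylation marks transcribed and intergenic chromatin. H3K9 methylation and the higher states of H4K20 methylation mark silent chromatin. PRC2 methylates H3K27 through EZH1 or EZH2, PRC1 binds that mark through its CBX subunits and attaches ubiquitin to H2A through RING1 and RNF2, and demethylases remove the marks. In breast epithelium EZH2 and BMI1 are known as regulators of progenitor cells, KMT2C is among the genes recurrently mutated in breast carcinoma, and KDM5B is also known as PLU-1, a name given on its discovery in breast cancer cells.

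Promoter sequences of some of the genes are shown first, chosen by a sequence match or by their difference in MCF10DCIS. The RefSeq table (GRCh38.p14; windows of 250 bases before to 50 bases after a transcript start, in the direction of the gene) held 58 windows for 40 of the 45 genes, and 12 of these genes had more than 1 window. CBX2, CBX8, DOT1L, NSD3 and SETD1B had none. E2F-type sites, through which cell-cycle genes are known to be switched, were searched on both strands as TTTGGCGC, TTTCGCGC or TTTCCCGC. They were present in 4 of the 58 windows (6.90%), beside 2.74% of the 35116 windows of all genes, and the 4 windows belonged to EZH2, SUZ12, NSD2 and KDM1B. In the 4 windows that follow, capitals mark the E2F-type letters on either strand.
EZH2: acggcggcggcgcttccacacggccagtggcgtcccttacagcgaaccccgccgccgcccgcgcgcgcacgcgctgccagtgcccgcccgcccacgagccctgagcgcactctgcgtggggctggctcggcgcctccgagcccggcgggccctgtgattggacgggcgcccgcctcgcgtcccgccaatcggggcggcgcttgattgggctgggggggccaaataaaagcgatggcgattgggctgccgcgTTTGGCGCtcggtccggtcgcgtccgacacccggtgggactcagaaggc
SUZ12: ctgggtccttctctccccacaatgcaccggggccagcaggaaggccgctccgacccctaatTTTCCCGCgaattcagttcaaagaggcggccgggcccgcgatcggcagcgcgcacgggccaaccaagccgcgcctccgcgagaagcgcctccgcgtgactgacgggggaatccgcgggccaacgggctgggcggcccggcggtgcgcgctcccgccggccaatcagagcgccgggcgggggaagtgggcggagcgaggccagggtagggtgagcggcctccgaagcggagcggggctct
NSD2: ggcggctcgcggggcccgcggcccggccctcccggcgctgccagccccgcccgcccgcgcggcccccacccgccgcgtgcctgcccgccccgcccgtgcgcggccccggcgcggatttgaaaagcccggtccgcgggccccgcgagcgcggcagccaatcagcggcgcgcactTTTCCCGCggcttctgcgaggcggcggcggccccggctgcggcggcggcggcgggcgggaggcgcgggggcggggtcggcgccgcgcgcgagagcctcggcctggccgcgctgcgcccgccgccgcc
KDM1B: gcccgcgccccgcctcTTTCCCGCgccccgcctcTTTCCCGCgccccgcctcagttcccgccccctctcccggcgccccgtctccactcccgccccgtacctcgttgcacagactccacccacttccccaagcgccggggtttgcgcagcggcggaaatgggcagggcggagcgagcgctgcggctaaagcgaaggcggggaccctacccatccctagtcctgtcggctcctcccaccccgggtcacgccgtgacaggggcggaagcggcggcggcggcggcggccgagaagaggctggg

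These windows lie at chr7:148884242-148884541 on the minus strand for EZH2, chr17:31936757-31937056 on the plus strand for SUZ12, chr4:1871143-1871442 on the plus strand for NSD2 and chr6:18155172-18155471 on the plus strand for KDM1B. KDM1B held the letters at 2 places, and the other 3 windows at 1 place each. A second EZH2 window held none. The GC box, GGGCGG on either strand, was in 81.0% of the windows of these 40 genes and in 44.95% of all windows, and CCAAT was in 34.5% of theirs and 34.6% of all. TTTGAA, the core of the cell-cycle homology region, was in 6.90% of theirs and 15.2% of all. The windows of all genes were taken without regard to level, whereas these 40 genes were all expressed, and overlapping windows were counted separately. This holds for the shares of E2F-type sites too. The windows of KMT2C, KMT2E and KDM5B are shown with GC boxes in capitals, because KMT2C and KMT2E had the lowest and KDM5B the highest difference of the 45 in MCF10DCIS, and none of these 3 held an E2F-type match.
KMT2C: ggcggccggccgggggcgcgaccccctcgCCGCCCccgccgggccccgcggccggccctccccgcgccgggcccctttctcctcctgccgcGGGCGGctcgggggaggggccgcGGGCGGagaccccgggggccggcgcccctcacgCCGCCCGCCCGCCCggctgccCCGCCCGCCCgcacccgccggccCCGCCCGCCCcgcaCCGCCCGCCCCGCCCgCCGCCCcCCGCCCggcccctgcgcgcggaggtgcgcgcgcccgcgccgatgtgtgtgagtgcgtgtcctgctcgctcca
KMT2E: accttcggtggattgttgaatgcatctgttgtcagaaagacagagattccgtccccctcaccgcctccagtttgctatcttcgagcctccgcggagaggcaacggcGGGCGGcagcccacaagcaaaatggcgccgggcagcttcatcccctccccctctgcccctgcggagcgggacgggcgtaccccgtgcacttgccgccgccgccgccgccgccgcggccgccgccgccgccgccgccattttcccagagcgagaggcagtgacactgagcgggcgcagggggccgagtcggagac
KDM5B: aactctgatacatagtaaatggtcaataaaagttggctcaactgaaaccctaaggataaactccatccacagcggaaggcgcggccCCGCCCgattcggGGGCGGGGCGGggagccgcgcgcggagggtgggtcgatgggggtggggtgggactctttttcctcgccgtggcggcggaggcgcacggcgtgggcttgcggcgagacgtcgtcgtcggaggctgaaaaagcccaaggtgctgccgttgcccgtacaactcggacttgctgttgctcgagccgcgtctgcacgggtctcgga

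They lie at chr7:152435954-152436253 on the minus strand for KMT2C, chr7:105013955-105014254 on the plus strand for KMT2E and chr1:202808372-202808671 on the minus strand for KDM5B. The KMT2C window held 15 GC boxes and was 88.7% G or C, against 1 box and 69.0% for KMT2E and 3 boxes and 63.7% for KDM5B. A match to these letters is a description of the sequence and says nothing of whether a factor binds there.

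The 45 genes spanned a wide range of levels within each line. In MCF10A, KDM1A (50.6 TPM) and NSD2 (47.2 TPM) were highest, CBX7 (1.58 TPM) was lowest and the median was 8.27 TPM, close to the 8.29 TPM of all measured genes. NSD2 was highest in each of the derived lines and SETDB2 lowest in each. The median was 8.33 TPM for MCF10AT1, 5.71 for MCF10DCIS and 7.46 for MCF10CA1a. MCF10DCIS was the line with the lowest level for 30 of the 45 genes (66.7%), beside 57.3% of all measured genes, and on rescaled TPM for 19 (42.2%), beside 36.3% of all genes. As deposited, MCF10DCIS was the line with the highest level for 4 genes, SETDB1, CBX8, KDM1B and KDM5B (8.89%; all genes 7.74%), and on rescaled TPM for 6 (13.3%; all genes 17.5%). Most of the genes differed little between the lines: the range of log2(TPM + 1) over the 4 lines was at least 1 for 8 of the 45 (17.8%), beside 30.8% of all genes. The widest ranges were those of KMT2C (2.02), KMT2E (1.57) and EZH2 (1.504), and the narrowest that of KDM2B (0.16).

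**Figure D1:**
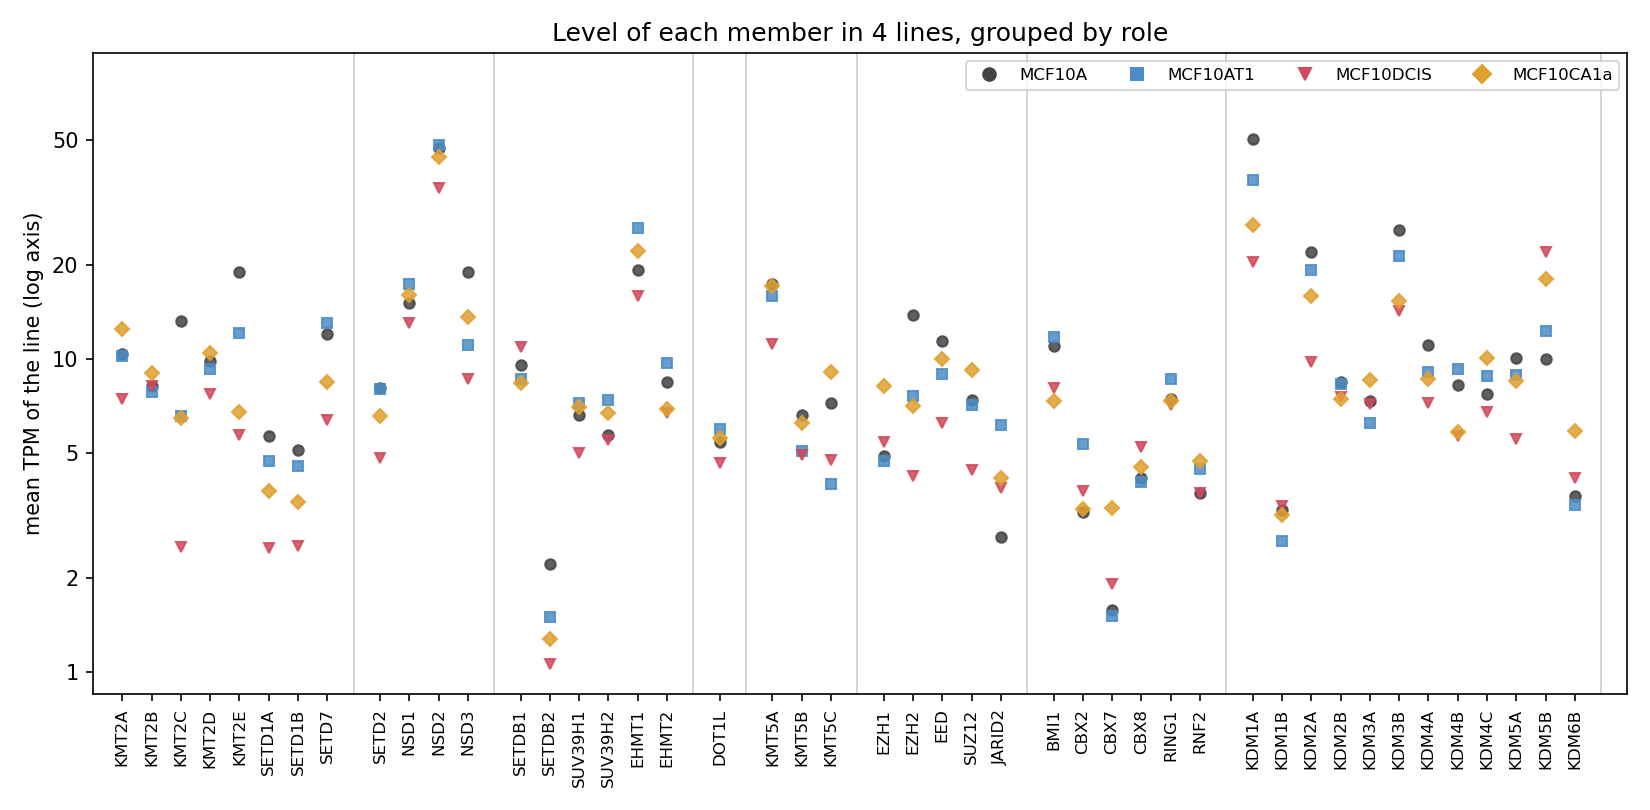
Mean TPM of each of the 45 genes (log axis) in the 4 lines, grouped by role, with 1 symbol per line and no error bars because only means were used. KMT2C, KMT2E and EZH2 are highest in MCF10A, and KDM5B is the demethylase that is highest in MCF10DCIS by the widest margin, at 22.0 TPM.

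Set against MCF10A, few of the genes passed the size of 1. In MCF10AT1 none of the 45 was counted as higher or lower, beside 3.39% of all genes counted as higher and 5.87% as lower. In MCF10DCIS 1 was counted as higher (2.22%; all genes 3.56%), which was KDM5B, and 6 as lower (13.3%; all genes 14.8%), which were KMT2C, KMT2E, EZH2, KDM1A, KDM2A and NSD3. In MCF10CA1a none was counted as higher (all genes 5.97%) and KMT2E alone as lower (2.22%; all genes 7.14%). The shares of the 45 were therefore at or under those of all genes in each comparison on the deposited scale, and the 3 comparisons share MCF10A. Their median difference was -0.05 for MCF10AT1, -0.35 for MCF10DCIS and -0.04 for MCF10CA1a, beside -0.066, -0.38 and -0.074 for all genes in the same order.

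On rescaled TPM the counts against MCF10A moved by a few genes. In MCF10AT1, JARID2 was counted as higher (all genes 5.83%) and none as lower (all genes 6.66%). In MCF10DCIS, KDM5B was counted as higher (all genes 7.82%) and KMT2C, KMT2E and EZH2 as lower (6.67%; all genes 10.3%), whereas KDM1A, KDM2A and NSD3 came to -0.93, -0.78 and -0.75. In MCF10CA1a, CBX7 was counted as higher (all genes 9.47%) and KMT2E as lower (all genes 7.8%).

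Between neighbouring derived lines, MCF10DCIS against MCF10AT1 had none of the 45 counted as higher (all genes 3.23%) and KMT2C alone as lower (all genes 7.51%). MCF10CA1a against MCF10DCIS had KMT2C alone counted as higher (all genes 6.03%) and none as lower (all genes 1.35%). KMT2C thus differed by -1.11 in MCF10DCIS against MCF10AT1 and by 1.09 in MCF10CA1a against MCF10DCIS. On rescaled TPM, KDM5B was counted as higher (all genes 6.63%) and KMT2C as lower (all genes 7.46%) in MCF10DCIS against MCF10AT1, and KMT2C as higher (all genes 6.01%) and none as lower (all genes 2.89%) in MCF10CA1a against MCF10DCIS. Both comparisons use the MCF10DCIS mean.

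**Figure D2:**
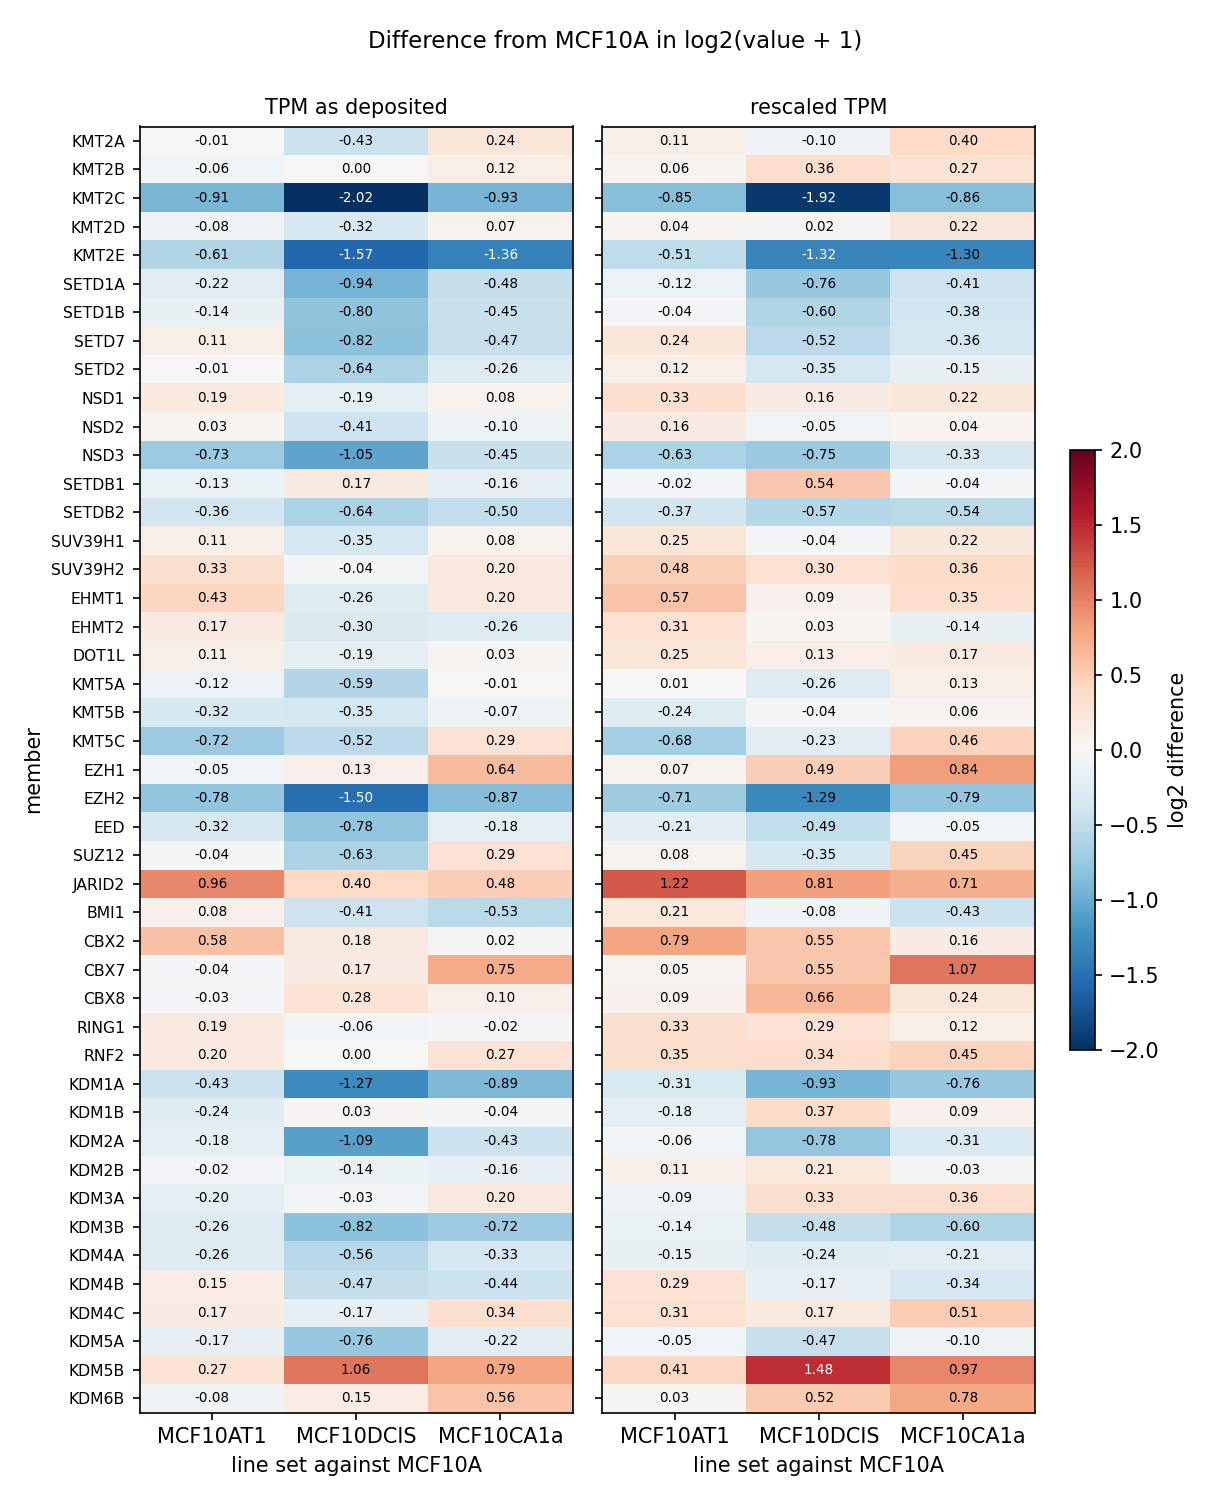
Difference in log2(value + 1) of each of the 45 genes in each derived line set against MCF10A, on TPM as deposited (left) and on rescaled TPM (right); each cell prints its value. The darkest cells are those of KMT2C in MCF10DCIS, at -2.02 on the left and -1.92 on the right.

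Among the 8 H3K4 genes, the KMT2 family split. KMT2C, a large enzyme that with KMT2D places H3K4 monomethylation at enhancers, was at 13.2 TPM in MCF10A, with 6.58 in MCF10AT1, 2.50 in MCF10DCIS and 6.46 in MCF10CA1a. Its MCF10DCIS level was 0.189 of that in MCF10A, and the differences from MCF10A were -0.91 in MCF10AT1, -2.02 in MCF10DCIS and -0.93 in MCF10CA1a. KMT2D, its paralogue, stayed between 7.73 and 10.4 TPM, so the KMT2C to KMT2D ratio within a line was 1.34 in MCF10A, 0.707 for MCF10AT1, 0.324 for MCF10DCIS and 0.618 for MCF10CA1a. A ratio within a line does not depend on the share of structural RNA. KMT2C has partial copies elsewhere in the genome, so the assignment of its reads is uncertain.

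KMT2E, which binds H3K4 trimethylation through a PHD finger and is not known as an active H3K4 methyltransferase, was at 18.9 TPM in MCF10A, with 12.1 in MCF10AT1, 5.71 in MCF10DCIS and 6.77 in MCF10CA1a. Its differences from MCF10A were -0.61, -1.57 and -1.36 in MCF10AT1, MCF10DCIS and MCF10CA1a. It was the only one of the 45 counted as lower in MCF10CA1a, on both scales. SRPK2, which overlaps KMT2E on the opposite strand, was at 10.6 TPM in MCF10AT1, 10.3 in MCF10DCIS and 9.66 in MCF10CA1a, against 17.2 in MCF10A. The kit was stranded, but the strand setting of the counting is not given in the sources used here, so reads of the overlapping pair may not have been kept apart. The other 6 H3K4 genes, KMT2A, KMT2B, KMT2D, SETD1A, SETD1B and SETD7, were not counted in any comparison with MCF10A. The largest of their differences was that of SETD1A, a COMPASS enzyme of H3K4 trimethylation, with 2.49 TPM in MCF10DCIS against 5.67 in MCF10A (-0.94; rescaled -0.76). SETD1B stood at -0.80 and SETD7 at -0.82 in the same comparison. KMT2A and KMT2B, the menin-bound enzymes, differed from MCF10A by no more than 0.43 in either direction in any derived line on the deposited scale. The summed rescaled TPM of the 8 genes was 218 for MCF10AT1, 162 for MCF10DCIS and 196 for MCF10CA1a, against 243 in MCF10A.

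The 4 H3K36 genes were led in level by NSD2, a dimethyltransferase, at 47.2 TPM in MCF10A, with 48.4 in MCF10AT1, 35.3 in MCF10DCIS and 44.1 in MCF10CA1a. On rescaled TPM its differences from MCF10A were 0.16, -0.05 and 0.04, so its level was much alike in all 4 lines. NSD3, the dimethyltransferase gene on chromosome 8, was at 19.0 TPM in MCF10A, with 11.1 in MCF10AT1, 8.65 in MCF10DCIS and 13.6 in MCF10CA1a. It was counted as lower in MCF10DCIS (-1.05) on the deposited scale only. DDHD2, which overlaps it on the opposite strand, was at 16.3 TPM in MCF10DCIS against 42.5 in MCF10A, and what part its reads have in the NSD3 value was not tested. NSD1 and SETD2, the enzyme of H3K36 trimethylation, differed from MCF10A by at most 0.64 in size, the largest being SETD2 in MCF10DCIS.

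None of the 6 H3K9 methyltransferases was counted in any comparison with MCF10A on either scale. EHMT1, also called GLP, which forms the H3K9 dimethylating pair with EHMT2, had the highest level of the group, at 19.2 TPM in MCF10A, with 26.3 in MCF10AT1, 15.8 in MCF10DCIS and 22.2 in MCF10CA1a. It exceeded EHMT2 in every line, by 3.22 times in MCF10CA1a and 2.27 times in MCF10A. The heterochromatin enzymes SUV39H1 and SUV39H2 stayed within 0.35 of MCF10A in either direction on the deposited scale. SETDB1, which trimethylates H3K9 at repeats, was at 10.9 TPM in MCF10DCIS against 9.53 in MCF10A, a difference of 0.17 (rescaled 0.54), and it overlaps CERS2 on the opposite strand. SETDB2 was at 1.06 TPM in MCF10DCIS against 2.22 in MCF10A, and it differed by -0.64. DOT1L, the H3K79 enzyme, was the least variable of the genes named by rule on the deposited scale, though not on rescaled TPM. It was at 5.44 TPM in MCF10A, with 5.97 in MCF10AT1, 4.64 in MCF10DCIS and 5.60 in MCF10CA1a.

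Among the H4K20 enzymes, KMT5A, which adds the first methyl group at that residue, was at 17.3 TPM in MCF10A, with 15.9 in MCF10AT1, 11.2 in MCF10DCIS and 17.1 in MCF10CA1a. KMT5C, which adds further groups in heterochromatin, was at 7.23 TPM in MCF10A, with 3.998 in MCF10AT1, 4.74 in MCF10DCIS and 9.09 in MCF10CA1a. Its differences from MCF10A were -0.72, -0.52 and 0.29, which puts MCF10AT1 lowest and MCF10CA1a highest. Its range over the 4 lines was 1.01, set by MCF10AT1 and MCF10CA1a, which are not neighbours in the order of the study. KMT5B, its paralogue, was between 4.94 and 6.60 TPM, and the KMT5B to KMT5C ratio was 1.27 in MCF10AT1 and 0.686 in MCF10CA1a, against 0.913 in MCF10A.

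Within PRC2 the catalytic subunits EZH2 and EZH1 differed in their order of lines. EZH2, the H3K27 methyltransferase known to be abundant in dividing cells, was at 13.8 TPM in MCF10A, with 7.60 in MCF10AT1, 4.22 in MCF10DCIS and 7.09 in MCF10CA1a. Its differences from MCF10A were -0.78, -1.504 and -0.87 on the deposited scale and -0.71, -1.29 and -0.79 on rescaled TPM. MCF10A was the highest line, and MCF10AT1 and MCF10CA1a were close to each other. EZH1, its paralogue, known for expression in resting cells too, was at 4.90 TPM in MCF10A, with 4.70 in MCF10AT1, 5.44 in MCF10DCIS and 8.18 in MCF10CA1a. EZH1 differed from MCF10A by -0.05, 0.13 and 0.64, or on rescaled TPM by 0.07, 0.49 and 0.84, without passing the size of 1. The EZH2 to EZH1 ratio was 2.82 in MCF10A, 1.61 for MCF10AT1, 0.775 for MCF10DCIS and 0.867 for MCF10CA1a, so EZH2 exceeded EZH1 in MCF10A and MCF10AT1 and was under it in the other 2 lines. No error can be put on these ratios.

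Of the partners of the enzyme, EED was, like EZH2, highest in MCF10A and lowest in MCF10DCIS, whereas SUZ12 and JARID2 were highest in other lines. EED, which binds H3K27 trimethylation, was at 11.4 TPM in MCF10A, with 8.97 in MCF10AT1, 6.24 in MCF10DCIS and 9.99 in MCF10CA1a. SUZ12, the scaffold, was at 7.38 TPM in MCF10A, with 7.13 in MCF10AT1, 4.42 in MCF10DCIS and 9.24 in MCF10CA1a, where it was highest. The EZH2 to SUZ12 ratio was 1.87 in MCF10A, 1.07 for MCF10AT1, 0.956 for MCF10DCIS and 0.768 for MCF10CA1a, the lowest in the last line. SUZ12 has a partial copy, SUZ12P1, listed at 4.37 TPM in MCF10AT1, 3.07 in MCF10DCIS and 5.15 in MCF10CA1a against 3.67 in MCF10A, and reads may have been shared between the 2. JARID2, an accessory subunit that recruits PRC2 and tunes its activity, was lowest in MCF10A, where EZH2 was highest, at 2.69 TPM in MCF10A, with 6.16 in MCF10AT1, 3.86 in MCF10DCIS and 4.17 in MCF10CA1a. Its differences were 0.96, 0.40 and 0.48, and on rescaled TPM 1.22, 0.81 and 0.71. JARID2 therefore stood just under the size of 1 in MCF10AT1 on the deposited scale and past it on the rescaled scale, and 95.9% of all genes had a lower rescaled difference in that comparison. KDM6B, a demethylase of H3K27, was at 5.88 TPM in MCF10CA1a against 3.65 in MCF10A (0.56; rescaled 0.78), and the EZH2 to KDM6B ratio was 3.78 in MCF10A, 2.23 for MCF10AT1, 1.02 for MCF10DCIS and 1.21 for MCF10CA1a.

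**Figure D3:**
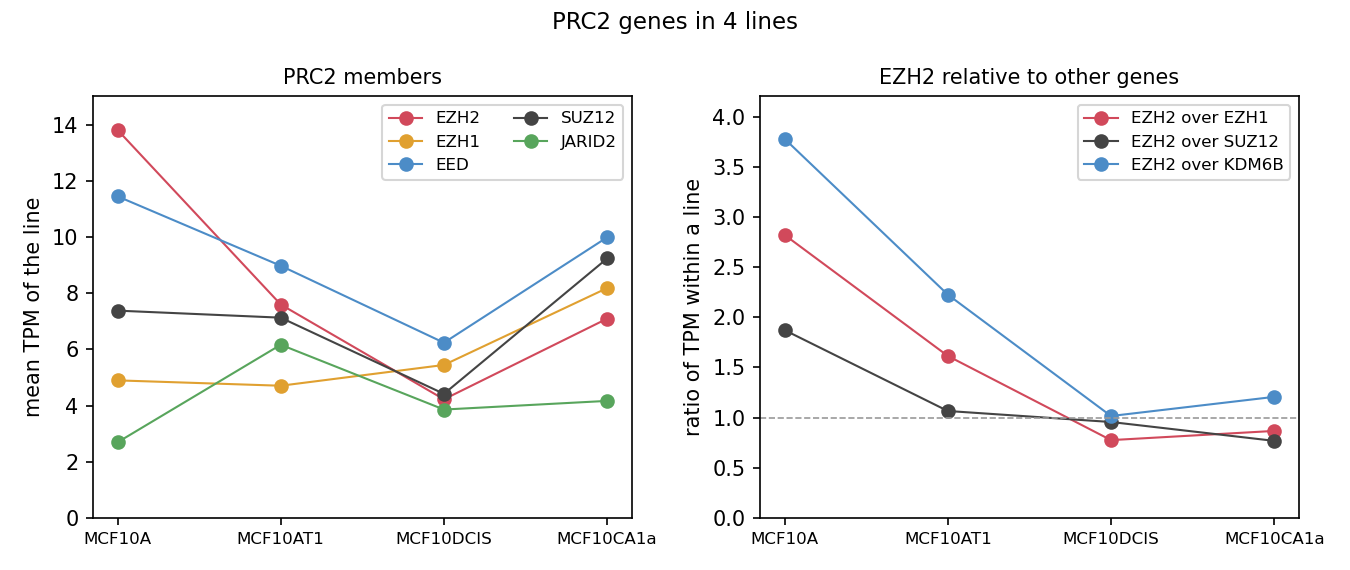
Left, mean TPM of the 5 PRC2 genes in the 4 lines; right, ratios of EZH2 to EZH1, SUZ12 and KDM6B within a line, with a dashed line at 1. Lines join the points only to guide the eye. EZH2 is the highest of the 5 in MCF10A, at 13.8 TPM, and the EZH2 to EZH1 ratio is under 1 in MCF10DCIS and MCF10CA1a.

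None of the 6 PRC1 genes was counted in any comparison with MCF10A on the deposited scale, and their median differences were 0.14 in MCF10AT1, 0.09 in MCF10DCIS and 0.06 in MCF10CA1a. On rescaled TPM these medians were 0.27, 0.44 and 0.20, beside 0.041, -0.094 and 0.046 for all genes, with CBX7 in MCF10CA1a the single one counted. BMI1, the PCGF subunit of canonical PRC1, was at 11.02 TPM in MCF10A, with 11.7 in MCF10AT1, 8.07 in MCF10DCIS and 7.32 in MCF10CA1a. PCGF2, its paralogue, was at 7.64 TPM in MCF10CA1a against 5.44 in MCF10A, so that the BMI1 to PCGF2 ratio was 2.01 for MCF10AT1, 1.73 for MCF10DCIS and 0.958 for MCF10CA1a, against 2.03 in MCF10A. CBX7, a reader of H3K27 trimethylation, was at 1.58 TPM in MCF10A, with 1.503 in MCF10AT1, 1.90 in MCF10DCIS and 3.33 in MCF10CA1a. In MCF10CA1a it differed from MCF10A by 0.75, and by 1.07 on rescaled TPM, on which it was the only one of the 45 counted as higher. The pseudocount of 1 weighs on so low a gene, whose ratio of TPM in MCF10CA1a to MCF10A was 2.11. CBX2, another reader, was at 5.35 TPM in MCF10AT1 against 3.25 in MCF10A (0.58; rescaled 0.79), and the CBX7 to CBX2 ratio was 0.281 for MCF10AT1, 0.501 for MCF10DCIS and 1.01 for MCF10CA1a, against 0.486 in MCF10A. The H2A ubiquitin ligases RING1 and RNF2 stayed within 0.27 of MCF10A in either direction on the deposited scale.

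Of the 12 demethylases, KDM5B was counted as higher in MCF10DCIS (8.33%, beside 3.56% of all genes), and on rescaled TPM too (beside 7.82%). KDM1A and KDM2A were counted as lower there on the deposited scale alone (16.7%, beside 14.8% of all genes). KDM5B, a demethylase of H3K4 trimethylation, was at 10.0 TPM in MCF10A, with 12.3 in MCF10AT1, 22.0 in MCF10DCIS and 18.0 in MCF10CA1a. Its differences from MCF10A were 0.27, 1.06 and 0.79, or on rescaled TPM 0.41, 1.48 and 0.97. KDM5A, the paralogue with the same substrate, was at 5.56 TPM in MCF10DCIS against 10.1 in MCF10A, so the KDM5B to KDM5A ratio was 0.993 in MCF10A, 1.38 for MCF10AT1, 3.96 for MCF10DCIS and 2.12 for MCF10CA1a. In MCF10DCIS the KDM5B mean was above those of the 8 H3K4 genes, the highest of which there was KMT2B, at 8.21 TPM. The same held in MCF10CA1a, where the highest of the 8 was at 12.4 TPM.

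KDM1A, or LSD1, which removes lower states of H3K4 methylation with its partner RCOR1, was at 50.6 TPM in MCF10A, with 37.4 in MCF10AT1, 20.4 in MCF10DCIS and 26.8 in MCF10CA1a. Its differences from MCF10A were -0.43, -1.27 and -0.89. RCOR1 was at 5.24 TPM in MCF10DCIS against 13.0 in MCF10A (-1.17), and the KDM1A to RCOR1 ratio was 3.89 in both of these lines, against 3.53 in MCF10AT1 and 2.79 in MCF10CA1a. KDM2A, a demethylase of H3K36, was at 21.9 TPM in MCF10A, with 19.3 in MCF10AT1, 9.79 in MCF10DCIS and 15.9 in MCF10CA1a. Its difference in MCF10DCIS was -1.09, and its paralogue KDM2B differed there by -0.14. The H3K9 demethylase KDM3B was at 14.2 TPM in MCF10DCIS and 15.3 in MCF10CA1a against 25.8 in MCF10A (-0.82 and -0.72), whereas KDM3A differed by -0.03 and 0.20. The remaining demethylases KDM1B, KDM4A, KDM4B and KDM4C were not counted in any comparison with MCF10A, and their differences lay between -0.56 (KDM4A in MCF10DCIS) and 0.34 (KDM4C in MCF10CA1a).

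The other genes of these pathways, 72 by list of which 66 were measured, were counted in the same way. In MCF10AT1 1 of the 66 was counted as higher (1.52%; all genes 3.39%), the PRC1 gene CBX6, and none as lower (all genes 5.87%). In MCF10DCIS none was counted as higher (all genes 3.56%) and 3 as lower (4.55%; all genes 14.8%). These were PAXIP1 (-1.06), a subunit of the KMT2C and KMT2D complexes, the H3K9 reader CBX5 (-1.22) and RCOR1 (-1.17), and on rescaled TPM, at -0.84, -0.90 and -0.91, none of the 3 was counted. In MCF10CA1a CBX6 was counted as higher (1.52%; all genes 5.97%) and PAXIP1 as lower (-1.01; 1.52%; all genes 7.14%), with PAXIP1 at -0.99 on rescaled TPM. The shares of these genes were under those of all genes. CBX6, a CBX reader of PRC1, was at 21.7 TPM in MCF10AT1, 17.1 in MCF10DCIS and 25.0 in MCF10CA1a, against 8.17 in MCF10A, with differences of 1.31, 0.98 and 1.503. On rescaled TPM the differences of CBX6 were 1.499, 1.40 and 1.72, and PHF1, a PRC2 partner that binds H3K36 methylation, was also counted as higher, at 1.01 in MCF10DCIS and 1.13 in MCF10CA1a. PHC2, a PRC1 subunit, was counted as higher in MCF10AT1 on rescaled TPM alone (1.07), at 77.7 TPM as deposited against 40.2 in MCF10A. On rescaled TPM, 2 of the 66 (3.03%) were thus higher in every derived line against MCF10A, and none was lower. Of all genes, 5.83%, 7.82% and 9.47% were counted as higher, with the derived lines in the order of progression. The rescaled shares of the 66 were therefore also under those of all genes. The other 10 of the 11 listed COMPASS subunits and the 3 genes of the H2A deubiquitylase BAP1 complex were not counted in any comparison with MCF10A on either scale.

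EZH2 is known as a target of E2F factors, and 16 proliferation genes were therefore set beside it. None was counted in MCF10AT1. In MCF10DCIS 4 were counted as lower (25.0%; all genes 14.8%), PCNA, E2F1, CCNE2 and TYMS, and on rescaled TPM 3 (18.8%; all genes 10.3%), without TYMS. In MCF10CA1a CCNE2 was counted as lower on both scales (6.25%; all genes 7.14% as deposited), and CDK1 as higher on rescaled TPM alone (1.07). E2F1 was at 7.01 TPM in MCF10AT1, 2.11 in MCF10DCIS and 10.4 in MCF10CA1a, against 11.5 in MCF10A, and MKI67 was at 38.3, 26.9 and 57.1 TPM in the same lines, against 39.1 in MCF10A. The EZH2 to MKI67 ratio was 0.198 for MCF10AT1, 0.157 for MCF10DCIS and 0.124 for MCF10CA1a, against 0.353 in MCF10A. As deposited, E2F1 and EZH2 were both lowest in MCF10DCIS, as were 57.3% of all measured genes. EZH2 was at 0.514 of its MCF10A level in MCF10CA1a. E2F activity was not measured, and the part of E2F factors or of proliferation in the EZH2 values was not tested. Of the other 3 genes with an E2F-type match, SUZ12 differed from MCF10A by -0.63 in MCF10DCIS (rescaled -0.35), NSD2 by -0.41 (rescaled -0.05) and KDM1B by 0.03 (rescaled 0.37), none past the size of 1.

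The differences were also set beside the positions of the genes. Chromosomes 7, 8 and 16 had the 3 lowest medians of 23 chromosomes in each of the comparisons with MCF10A on rescaled TPM. All of these comparisons use the same MCF10A mean, and the chromosomes were singled out after these values were seen. The chromosome 7 median, over 627 genes, was -0.46 for MCF10AT1, -0.66 for MCF10DCIS and -0.51 for MCF10CA1a. Of the 45 genes, KMT2C, KMT2E and EZH2 lie on chromosome 7, NSD3 on chromosome 8 and SETD1A on chromosome 16. These 5 had a median rescaled difference of -0.63 in MCF10AT1, -1.29 in MCF10DCIS and -0.79 in MCF10CA1a, and all 5 were below 0 in each, as were 86.6%, 86.3% and 83.9% of all genes on these chromosomes. The 40 genes on other chromosomes had medians of 0.081, 0.025 and 0.14 in the same comparisons, and 13, 19 and 15 of them were below 0. All 3 genes that were counted as lower on rescaled TPM in MCF10DCIS were thus among the 5. For all genes with a position, 25.1% of the 1707 on chromosomes 7, 8 and 16 were counted as lower in MCF10DCIS, beside 7.90% of the 10853 elsewhere. Among the other pathway genes, CBX3, PAXIP1, ASH2L, PAGR1, SETD6 and KDM8 lie on these chromosomes, and their median was -0.43 for MCF10AT1, -0.48 for MCF10DCIS and -0.43 for MCF10CA1a. For MCF10DCIS against MCF10AT1 the medians of chromosomes 7, 8 and 16 were -0.20, -0.15 and -0.19, beside -0.13 for all genes. For MCF10CA1a against MCF10DCIS they were 0.16, 0.14 and 0.13, beside 0.14 for all genes.

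The 20 measured genes on either side of each gene, or as many as the chromosome held, gave a local value, from 40 neighbours for all but EHMT1 (20) and KDM5A (22), which lie near a chromosome end. In MCF10DCIS, KMT2C (chr7:152134922-152436005 on GRCh38) stood at -1.92 where its 40 neighbours had a median of -0.57, and none of the 40 was lower. EZH2 (chr7:148807383-148884321) stood at -1.29 where the neighbours had a median of -0.69, with 8 of the 40 lower. KMT2E (chr7:105014179-105114361) stood at -1.32 beside a median of -0.68, with 3 lower. NSD3 and SETD1A, by contrast, stood at -0.75 and -0.76 beside medians of -0.67 and -0.70.

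In MCF10AT1 and MCF10CA1a, EZH2 was nearer to its neighbours. It stood at -0.71 beside -0.42 in MCF10AT1 and at -0.79 beside -0.75 in MCF10CA1a, where 19 of the 40 neighbours were lower. KMT2E differed in this respect, with -1.30 beside -0.31 in MCF10CA1a, the lowest value relative to its neighbours of the 45 there. EHMT1 and KDM4C lie on chromosome 9, which had the highest median in MCF10AT1 (0.57) and MCF10CA1a (0.56), and EHMT1 stood at 0.57 in MCF10AT1 where its 20 neighbours stood at 0.58.

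Relative to the neighbours, 1 of the 45 passed the size of 1 in MCF10AT1 (2.22%; all genes 11.2%), 3 in MCF10DCIS (6.67%; all genes 15%) and 1 in MCF10CA1a (2.22%; all genes 14.9%). These shares were under those of the 12560 genes with a position. JARID2 was the one in MCF10AT1, at 1.29 above its neighbours, with 39 of the 40 lower. KMT2C (-1.36), KDM5B (1.06, with all 40 neighbours lower) and JARID2 (1.04) were those in MCF10DCIS, and CBX7 (1.04) was the one in MCF10CA1a. The number of copies of these chromosomes in the lines is not measured in these data, and its part in the values was not tested.

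**Figure D4:**
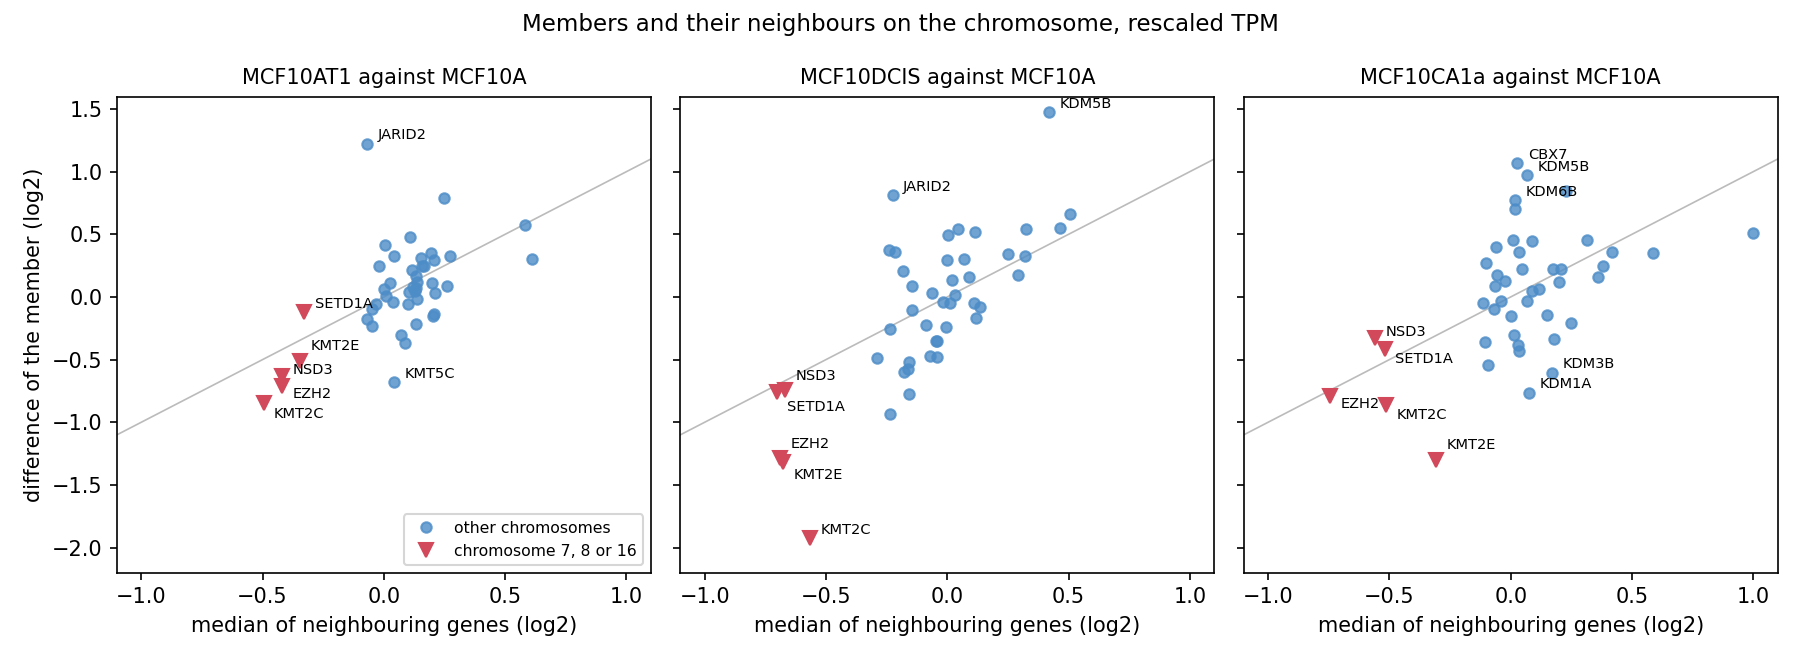
Rescaled difference from MCF10A of each of the 45 genes (vertical axis, log2) against the median of the measured genes around it (horizontal axis, log2; 40 genes, or 20 for EHMT1 and 22 for KDM5A), 1 panel per derived line, with the line of equal values in grey. The 5 genes on chromosomes 7, 8 and 16 (red triangles) lie at the left in each panel, and KMT2C in MCF10DCIS is the farthest under the grey line, by 1.36.

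**Figure D5:**
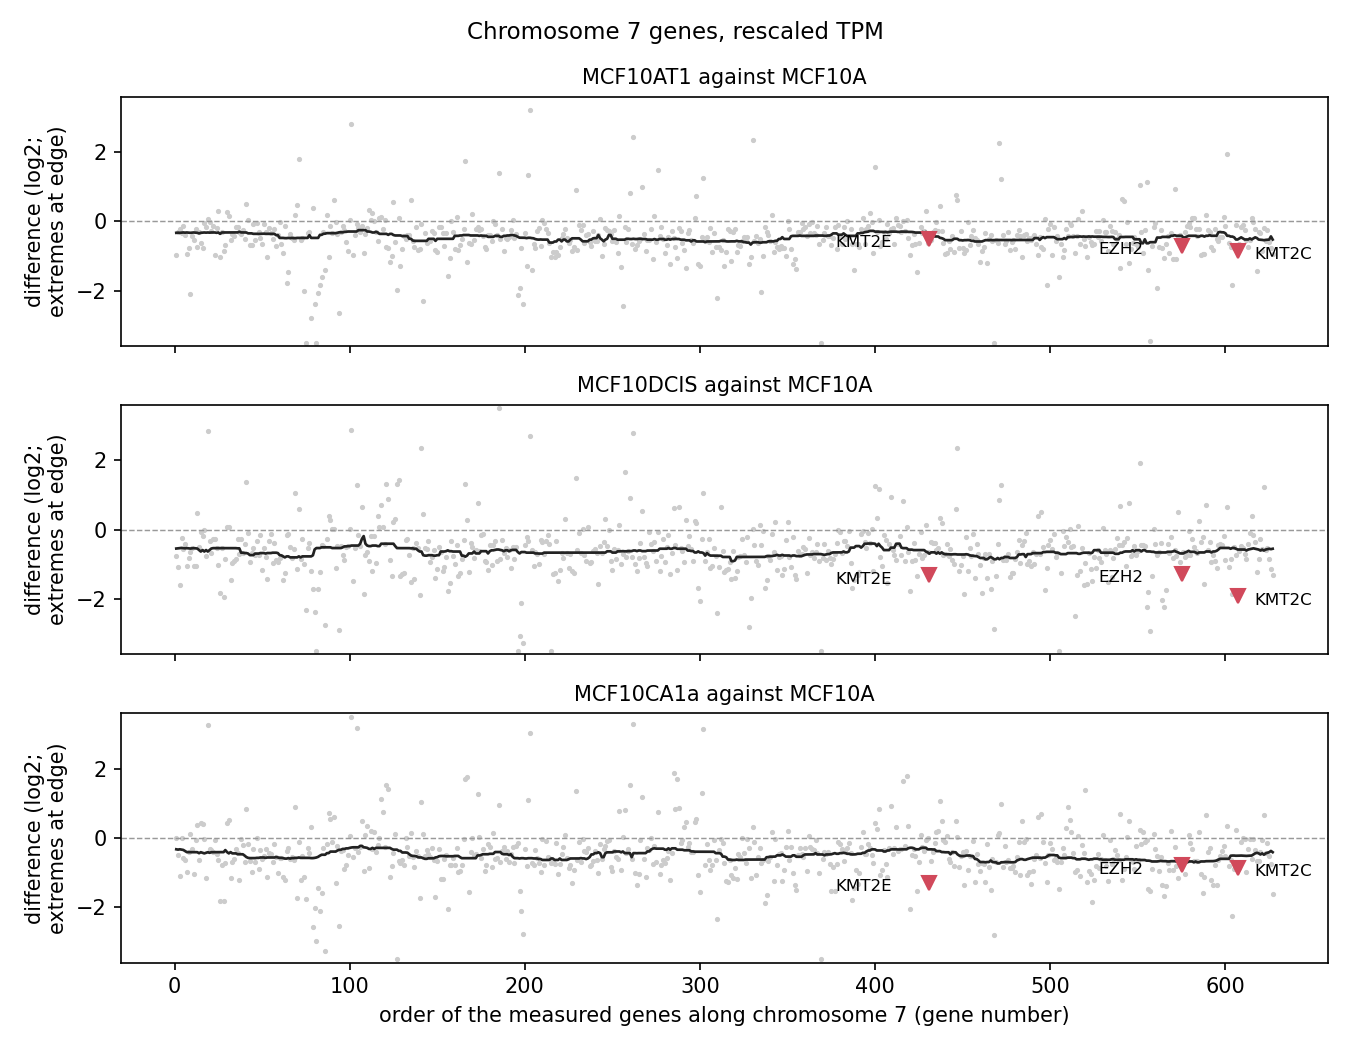
Rescaled difference from MCF10A (log2) of the 627 measured genes in order along chromosome 7, in grey, with the running median in black and values beyond the axis drawn at its edge. The running median stays below 0 along the chromosome in each of the 3 panels, and KMT2E, EZH2 and KMT2C are marked in red.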

How the data were processed

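The deposited table holds TPM, which the authors averaged over the 3 libraries of each line. A stranded kit was used on total RNA, per the labels' protocols, and STAR, edgeR and hg38 are named in the submitters' processing notes; for their versions, the counting program, its strand setting and the annotation, the sources used here give nothing. From the means, differences of log2(TPM + 1) were computed with Python 3.11.15, pandas 2.3.3 and numpy 2.4.6 for 5 pairs of lines, with a filter of 1 TPM in at least 1 line and a size of 1, and every gene entered the counts of all genes. A check on simulated data used a copy of the MCF10A column without noise, in which large changes were set, and these were counted. It did not try changes near the size of 1, the rescaling or the comparison with neighbours, so it says nothing of those. Positions came from GENCODE release 29 (GRCh38) and promoters from RefSeq. Only line means were used, so no interval or test was given, and the depth is unknown. Genes with values in all 4 lines were those past the size against MCF10A on either scale, all PRC2 genes, and the highest and the most variable gene of each role group. The genes, role groups, lists and rules were chosen with earlier results of these data known.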

Additional observations from a re-analysis of the deposited data

How the results depend on the processing

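Each count and median was recomputed with a pseudocount of 0.1, no filter, a filter of 5 TPM, rescaled TPM, median-of-ratios scaling, quantile normalization and a size of 1.5-fold. KMT2C, KMT2E, EZH2 and KDM5B kept their count in MCF10DCIS against MCF10A under all of these, whereas KDM1A, KDM2A and NSD3 came under the size of 1 with quantile, median-of-ratios and rescaled values, which lift MCF10DCIS as a whole. Genes counted as lower there numbered 3 on each of those scales and 16 at 1.5-fold, instead of 6. With median-of-ratios values the share was 6.67%, beside 6.44% of all genes. Shares of all genes are not given for quantile values, the pseudocount of 0.1 or 1.5-fold. Counts under these settings therefore cannot be read as more or fewer than among all genes. In MCF10AT1, 1 gene was counted as higher with a pseudocount of 0.1, quantile, median-of-ratios and rescaled values and 1.5-fold, and 5 as lower at 1.5-fold. In MCF10CA1a, 1 was counted as higher with a pseudocount of 0.1 or rescaled values and 3 at 1.5-fold, and 2 as lower with a pseudocount of 0.1 and 5 at 1.5-fold. For MCF10DCIS against MCF10AT1, 1 was counted as higher with quantile, median-of-ratios, rescaled and 1.5-fold settings, and 3 as lower with a pseudocount of 0.1, 0 with quantile and median-of-ratios and 13 at 1.5-fold. For MCF10CA1a against MCF10DCIS, 2 were counted as higher with a pseudocount of 0.1, 0 with quantile and median-of-ratios and 8 at 1.5-fold. With median-of-ratios values, 3.65% of all genes were counted as higher in MCF10AT1 against MCF10A. The share was 5.94% in MCF10DCIS against MCF10AT1, where 4.07% were counted as lower, and 2.90% as higher in MCF10CA1a against MCF10DCIS. A count of 1 is 2.22% of the 45 genes. The median of the 45 genes against MCF10A was 0.060 in MCF10AT1 with quantile and with rescaled values, 0.085, 0.044 and -0.044 in MCF10DCIS with quantile, median-of-ratios and rescaled values, and 0.087 in MCF10CA1a with rescaled values. It was -0.091, -0.076 and -0.21 for MCF10DCIS against MCF10AT1 and -0.0067, -0.034 and 0.10 for MCF10CA1a against MCF10DCIS, with quantile, median-of-ratios and rescaled values. The sign of the median thus depends on the scaling. So does the sign of small differences of genes named by rule, such as DOT1L in MCF10DCIS against MCF10A (-0.19 as deposited, 0.13 rescaled). No gene named by rule went from counted as lower to counted as higher, or the other way. No paired analysis was possible because the table holds 1 mean per line and no replicate numbers; for the same reason leaving out each replicate and limma over libraries were not run. No error, depth or detection limit can be given, and genes at low TPM such as CBX7 depend most on the pseudocount.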
